A study of Mus musculus with 12 samples.

Results

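The 48 genes described here drive or mark the cell division cycle, and were chosen by symbol: each had 1 row used in both deposited count tables, which list 55401 mouse genes. They comprise G1 and G1/S cyclins and kinases, replication and deoxynucleotide synthesis genes, mitotic regulators and structural proteins, and 2 inhibitors of cyclin-dependent kinases. Tumor-associated macrophages (TAMs) had been sorted from subcutaneous tumors of B16-F10, a mouse melanoma cell line, with the surface phenotype CD45+CD11b+Ly6C-Ly6G-F4/80+. This gate is that of the study's methods, whereas its supplementary legends read Ly6C+Ly6G+ in one place and Ly6G-Ly6C+ in another. One table held 3 AMPKfl/fl samples (WT) and 3 AMPKfl/flLyz2cre/cre samples (KO), all taken 15 days after implantation, in which Cre under the Lyz2 promoter deletes the floxed AMPK allele in myeloid cells, monocytes and neutrophils included. The other held 3 samples from early-stage tumors (Early, day 8) and 3 from late-stage tumors (Late, day 15), all of genotype WT. No treatment was given, and the labels give no age. The genotype field of 2 KO samples reads Lyz3cre/cre and Lyz4cre/cre where their titles read Lyz2cre/cre, and nothing in the labels says whether the samples of a group came from separate animals, so p-values measure only the spread between these samples.

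Libraries held 71019494 to 84470374 assigned reads, of which the 48 genes took 0.42% to 0.427% in WT, 0.372% to 0.384% in KO, 0.395% to 0.409% in Early and 0.508% to 0.511% in Late. Prkaa1, which encodes AMPKα1, was at 68.8, 62.8 and 63.3 CPM in the WT samples and 47, 40.9 and 40.8 CPM in the KO samples, a log2 fold change of -0.60 ± 0.073 (SE, edgeR adjusted p = 0.000226). Lyz2, the gene that carries the Cre insertion, was at 9.16 to 13.5 CPM in the WT and KO samples alike and at 1091 to 3008 CPM in the Late and Early samples. These low values go against the label of the 3 WT samples, whose genotype carries no Cre insertion. WT and KO therefore stand for the libraries so labelled throughout, and every direction given for KO against WT rests on those labels. Since all 3 WT samples share the low Lyz2 level, no comparison without them could be made. Adgre1 and Csf1r, defining macrophage genes, ranged from 809.7 to 1344 CPM over the 12 libraries. Ly6g, a neutrophil gene excluded by the gate in the methods, had 0 counts in every library except Late 3, where it had 5. Transcripts of 4 Y-linked genes summed to 41.5 to 48.8 CPM in Early, at most 0.0499 CPM in Late and 128 to 153 CPM in WT and KO, so Y-linked RNA and the day cannot be told apart in that comparison. The study's methods name female C57BL/6J hosts, and the Y-linked RNA in 9 of the 12 libraries goes against female donors there. Because the samples are bulk RNA, fewer cycling cells and less cell cycle RNA per cell cannot be told apart either.

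Progress through the cell cycle is driven by cyclin-dependent kinases (CDKs), which are active only when bound to a cyclin. D-type cyclins with CDK4 or CDK6, then cyclin E with CDK2, release E2F transcription factors from the retinoblastoma family, and E2F switches on genes for origin licensing, the replication fork and nucleotide supply. Genes of G2 and mitosis, which the DREAM complex otherwise holds silent, are switched on later, in part by FOXM1 and the MuvB complex. p21 (Cdkn1a) and p27 (Cdkn1b) bind and inhibit cyclin-CDK complexes. Macrophages in tissues and tumors are renewed both by incoming monocytes and by local division, which depends largely on the CSF1 receptor.

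Genes that move together in the cell cycle are known to share promoter elements: E2F sites in G1/S genes, and the cell cycle homology region (CHR) with CCAAT boxes in G2/M genes. RefSeq promoter windows of GRCm38.p6, 250 bases before to 50 after the start, were found for 39 of the 48 genes, and not for Ccnd1, Ccnd2, Ccne2, Mcm4, Ccna2, Foxm1, Aurkb, Kif20a and Tpx2. On both strands, TTTGAA was searched as CHR, CCAAT as the CCAAT box, and the E2F core as TTCCCGC or as TTCGCGC or as TTGCCGC or as TTGGCGC, where matches may overlap each other. The 200 bases before the start are shown for 3 mitotic genes and 2 helicase genes because they carry the contrast between the elements. They are Cdk1 (chr10:69352913-69353112, minus strand), Cdc20 (chr4:118437344-118437543, minus strand), Ube2c (chr2:164769729-164769928, plus strand), Mcm5 (chr8:75109309-75109508, plus strand) and Mcm6 (chr1:128359706-128359905, minus strand). Capitals mark motif matches, and RefSeq and GENCODE do not place every start at the same base.
Cdk1: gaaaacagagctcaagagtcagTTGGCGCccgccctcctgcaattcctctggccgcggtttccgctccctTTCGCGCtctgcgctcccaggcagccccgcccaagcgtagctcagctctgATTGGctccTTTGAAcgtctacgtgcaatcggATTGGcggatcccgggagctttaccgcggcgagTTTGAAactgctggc
Cdc20: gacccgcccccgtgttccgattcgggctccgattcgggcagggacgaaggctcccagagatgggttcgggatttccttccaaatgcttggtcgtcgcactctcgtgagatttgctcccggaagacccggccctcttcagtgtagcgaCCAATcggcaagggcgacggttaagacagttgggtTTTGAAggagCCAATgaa
Ube2c: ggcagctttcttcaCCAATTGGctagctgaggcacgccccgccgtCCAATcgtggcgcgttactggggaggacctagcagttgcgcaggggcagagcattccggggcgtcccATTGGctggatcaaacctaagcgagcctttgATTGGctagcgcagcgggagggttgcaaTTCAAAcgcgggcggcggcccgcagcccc
Mcm5: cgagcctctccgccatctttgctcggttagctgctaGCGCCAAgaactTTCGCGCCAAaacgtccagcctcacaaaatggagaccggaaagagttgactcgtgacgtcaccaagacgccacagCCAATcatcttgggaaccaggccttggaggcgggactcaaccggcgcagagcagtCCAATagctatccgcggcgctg
Mcm6: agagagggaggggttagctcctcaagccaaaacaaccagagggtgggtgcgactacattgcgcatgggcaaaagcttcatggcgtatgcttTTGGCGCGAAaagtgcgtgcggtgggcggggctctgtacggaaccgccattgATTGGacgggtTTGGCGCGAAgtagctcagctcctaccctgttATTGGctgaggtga

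Cdk1, Cdc20 and Ube2c each hold a CHR match together with CCAAT matches, and Cdk1 holds E2F cores as well, whereas Mcm5 and Mcm6 hold E2F cores and CCAAT matches and no CHR match. Over the 18 mitotic genes with a window, 72.2% held CHR, 88.9% CCAAT, 72.2% both and 16.7% an E2F core. Over the 16 G1/S, replication and deoxynucleotide genes, 12.5% held CHR, 62.5% CCAAT, 12.5% both and 56.2% an E2F core. The shares among all 27025 genes with windows were 20.2%, 41.1%, 8.97% and 10.9%. A match is a run of letters and not a shown binding site.

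**Figure D1:**
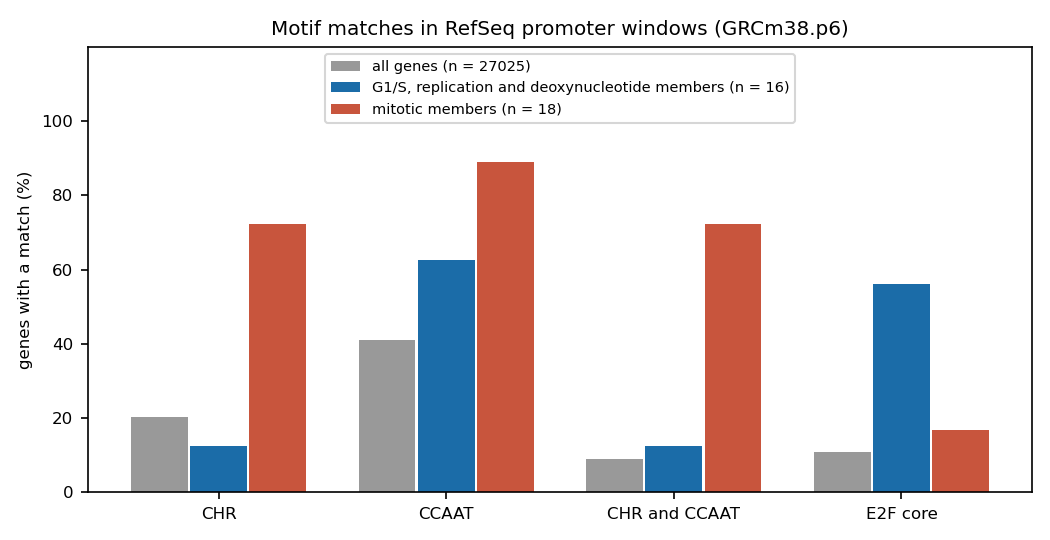
Share of genes with at least 1 match in the RefSeq promoter window (y axis, percent) for CHR, CCAAT, both and the E2F core, in all genes (grey), the 16 G1/S, replication and deoxynucleotide genes (blue) and the 18 mitotic genes (red). The red bar is the tallest for CHR (72.2%) and the blue bar for the E2F core (56.2%).

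To ask how loss of AMPK in myeloid cells relates to this program, the study set TAMs of the 2 genotypes side by side, and the libraries labelled KO were compared with those labelled WT, with the limit on the WT label given above. Most cell cycle genes were lower in KO. With edgeR's quasi-likelihood test and an adjusted p under 0.05 (Benjamini-Hochberg over all 17532 genes tested), 21 of the 48 fell and 2 rose, namely Ccnd2 and Cdkn1b. Over all genes tested, 21.1% were called, 11.3% higher and 9.78% lower. The changes were small. The log2 fold changes ran from -0.51 (Cdk1) to 0.32 (Cdkn1b) with a median of -0.17 against -0.0037 for all genes tested, and 43 of the 48 were negative. Summed over the genes, the level was 4204, 4279.8 and 4204 CPM in the WT samples and 3837, 3794 and 3721 CPM in the KO samples. The groups did not overlap in this sum, and KO stood at 0.895 times WT. None of the 48 also passed the study's limit of an absolute log2 fold change above 1, with edgeR or with DESeq2, although 28 had an unadjusted p under 0.05 with edgeR, as did 32.6% of all genes tested. Of all genes tested, 3.34% passed both limits, 2.05% higher and 1.28% lower.

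Leaving out single libraries lowered the number of genes that fell to 11 without WT 3, to 12 without KO 1 and to 9 without KO 2. In these runs 13.3%, 14.4% and 13.3% of all genes tested were called in either direction, against 21.1% with all libraries. The number that rose was 1 without WT 2, WT 3, KO 1 or KO 2. In 32 of the 48 the 3 KO values lay outside the range of the 3 WT values, 29 of them below it and 3 above it, whereas 37.2% of all genes tested were separated in this way, 18.4% lower and 18.8% higher.

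**Figure D2:**
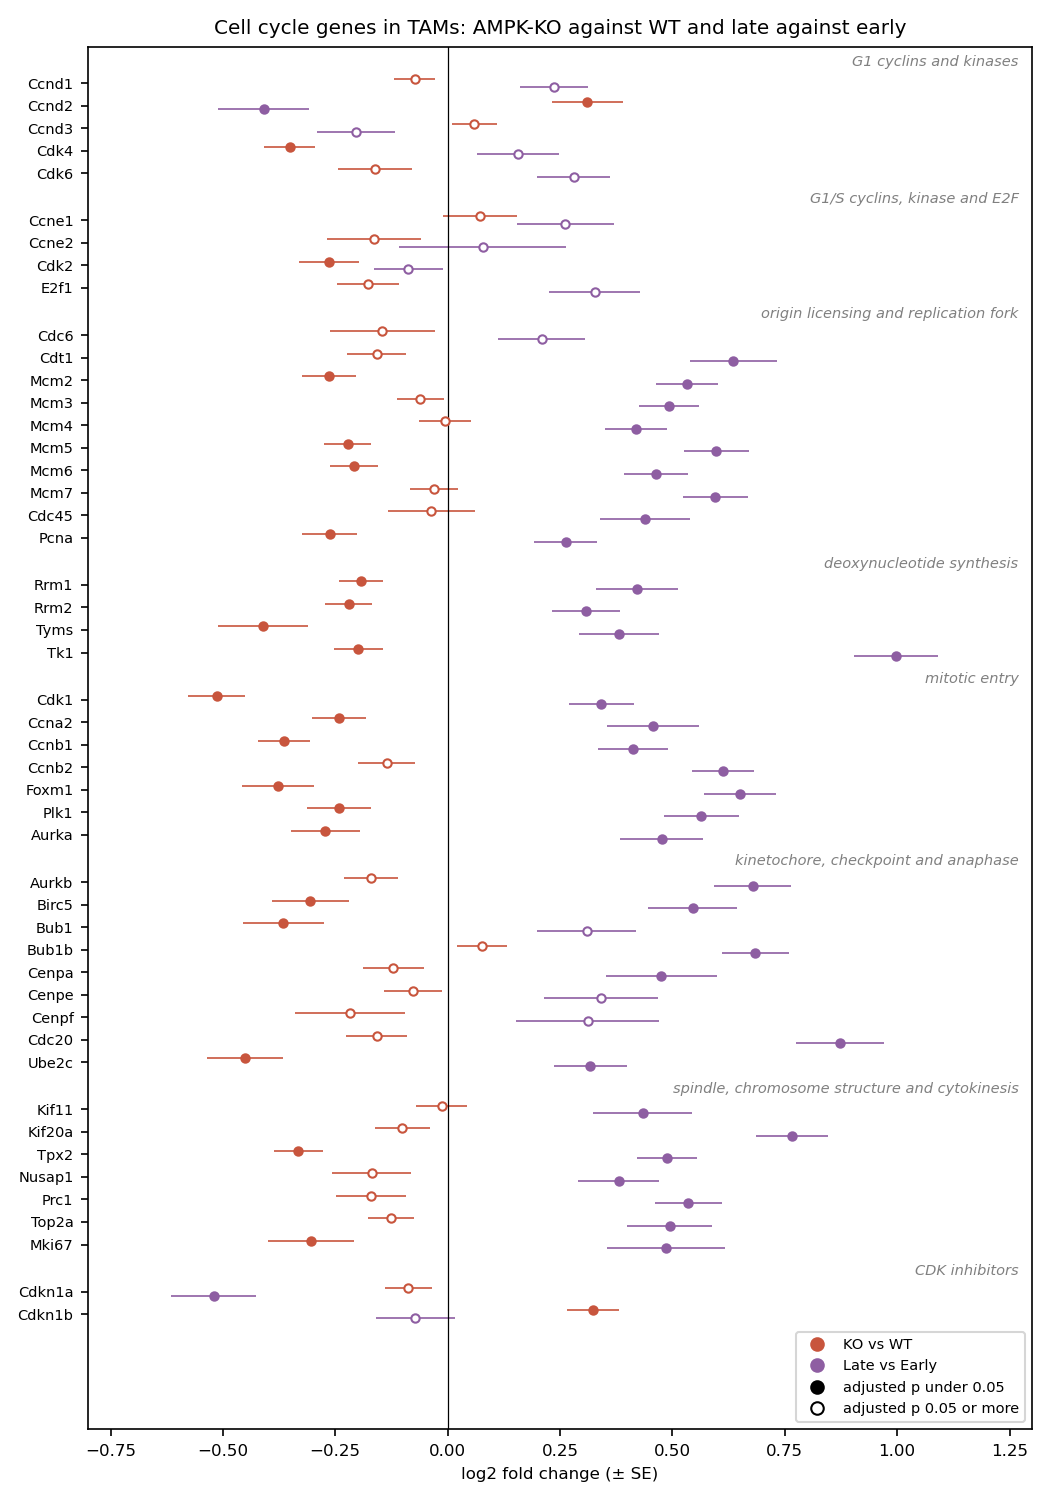
Log2 fold change of each of the 48 genes (x axis, ± SE) by role (y axis), for KO against WT in red and Late against Early in purple, with filled points at an adjusted p under 0.05. Red points lie mostly left of 0 (43 of 48) and purple points mostly right of it (43 of 48). Ccnd2 is the only gene called higher in KO and lower in Late.

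Among the G1 cyclins and kinases, 1 of 5 rose and 1 fell. Ccnd2 (ENSMUSG00000000184.12, chr6:127125162-127152193 on GRCm38), which encodes cyclin D2, was at 96.9, 87.2 and 95.3 CPM in the WT samples and 121, 123 and 102 CPM in the KO samples. All KO values lay above all WT values, a log2 fold change of 0.31 ± 0.078 (SE, edgeR adjusted p = 0.0174). Cdk4, the kinase partner of D-type cyclins, was at 153, 170.4 and 159 CPM in the WT samples and 122, 125 and 131 CPM in the KO samples. It fell in KO without overlap, by 0.35 ± 0.057 (SE, edgeR adjusted p = 0.00154) on the log2 scale. Ccnd1, the most abundant D-type cyclin in all 4 groups per kilobase of exon, was at 292, 309 and 297 CPM in the WT samples and 286, 290.0 and 277 CPM in the KO samples and did not pass the test (-0.07 ± 0.045 SE, edgeR adjusted p = 0.297). Ccnd3 was at 97, 101 and 99 CPM in the WT samples and 101, 106 and 103 CPM in the KO samples, with overlapping groups and a log2 fold change of 0.06 ± 0.050 (SE, edgeR adjusted p = 0.465). Cdk6, the other D-cyclin kinase, was at 89.5, 76.3 and 77.8 CPM in the WT samples and 80.3, 67.8 and 69.7 CPM in the KO samples and overlapped as well (-0.16 ± 0.082 SE, edgeR adjusted p = 0.209). The 3 D-type cyclins and their 2 kinases thus split by gene, with only Ccnd2 and Cdk4 past the threshold. With 1 library left out, the call was lost for Ccnd2 without WT 2, WT 3, KO 1 or KO 2 (adjusted p 0.0545 to 0.0929).

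Of the G1/S genes, 1 of 4 fell. Cdk2, which phosphorylates substrates at the start of S phase, was at 58.4, 63.7 and 66.8 CPM in the WT samples and 52.1, 50.4 and 54.7 CPM in the KO samples, with no overlap and a log2 fold change of -0.26 ± 0.066 (SE, edgeR adjusted p = 0.0172). The exons of Cdk2 (ENSMUSG00000025358.16, chr10:128697939-128705031) and of Pmel on the opposite strand share 34 bases, and Pmel, a melanosome gene, held up to 594% of the counts of Cdk2. Pmel was at 219, 231 and 225 CPM in the WT samples and 165, 174 and 167 CPM in the KO samples, a log2 fold change of -0.42 ± 0.047 (SE, edgeR adjusted p = 0.000133), and its part in the Cdk2 result was not tested. E2f1, an activator of S phase genes, was at 55.3, 59 and 51.3 CPM in the WT samples and 46.8, 48.5 and 51.2 CPM in the KO samples. Its KO values were all below its WT values, but the difference did not pass the test (-0.18 ± 0.069 SE, edgeR adjusted p = 0.0981). Ccne1, encoding cyclin E1, overlapped between groups at 18.5, 19.8 and 20.1 CPM in the WT samples and 21.4, 19.8 and 20.2 CPM in the KO samples (0.07 ± 0.082 SE, edgeR adjusted p = 0.599). Ccne2, with at least 623 counts in each library the least counted of the 48, had a log2 fold change of -0.16 ± 0.11 (SE, edgeR adjusted p = 0.321). The call was lost for Cdk2 without WT 3, KO 1 or KO 2 (adjusted p 0.0625 to 0.0871).

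Genes of origin licensing and the replication fork summed to 1107 ± 26.5 CPM in WT and 982 ± 6.02 CPM in KO (mean ± SD, n = 3 samples each). All 10 had a negative log2 fold change and 4 fell, namely Mcm2, Mcm5, Mcm6 and Pcna. The sign of Mcm4, Mcm7, Cdc6 and Cdc45, none of which passed the test, turned positive when single libraries were left out. Mcm2, a subunit of the replicative helicase, was at 121, 126 and 122 CPM in the WT samples and 106, 107 and 94.1 CPM in the KO samples. It fell without overlap (log2 fold change -0.26 ± 0.060 SE, edgeR adjusted p = 0.0101). Mcm5, another helicase subunit, was at 128, 132 and 140.2 CPM in the WT samples and 112, 113 and 118 CPM in the KO samples, again without overlap (-0.22 ± 0.053 SE, edgeR adjusted p = 0.0131). Pcna, the sliding clamp of DNA polymerases, was at 255, 302 and 284 CPM in the WT samples and 235, 230.3 and 235 CPM in the KO samples, and the highest KO value was below the lowest WT value (-0.26 ± 0.062 SE, edgeR adjusted p = 0.0124). The other helicase subunits differed from gene to gene, since Mcm6 fell (-0.21 ± 0.053 SE, edgeR adjusted p = 0.0185) while Mcm3, Mcm4 and Mcm7 had log2 fold changes of -0.06 ± 0.052, -0.01 ± 0.058 and -0.03 ± 0.054 (SE) and overlapping groups. Cdt1 and Cdc6, which load the helicase, and Cdc45, which activates it, did not pass the test. Leaving out 1 library lost the calls of Mcm5 without WT 3, KO 1 or KO 2 (adjusted p 0.0577 to 0.0712), Pcna without WT 3 or KO 2 (adjusted p 0.0551 to 0.0643) and Mcm6 without KO 1 or KO 2 (adjusted p 0.0575 to 0.0798).

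All 4 genes of deoxynucleotide synthesis fell in KO, none with overlapping groups, and together they stood at 306 ± 7.46 CPM in WT and 263 ± 4.16 CPM in KO. Rrm2, the regulated subunit of ribonucleotide reductase, was at 75.9, 80.8 and 77.4 CPM in the WT samples and 67, 66.7 and 67.2 CPM in the KO samples. The 3 KO values all lay below the WT values (log2 fold change -0.22 ± 0.052 SE, edgeR adjusted p = 0.0131). Tyms, thymidylate synthase, showed the largest decrease of the 4, at 22.7, 29 and 25.1 CPM in the WT samples and 19.1, 18.4 and 20.2 CPM in the KO samples (-0.41 ± 0.10 SE, edgeR adjusted p = 0.015). Transcripts of 9 other genes match Tyms at 95% identity or more over at least 200 bases. Together they held up to 279.5% of its counts, and their part in the Tyms values of both comparisons was not tested. Rrm1 and Tk1, the large reductase subunit and thymidine kinase, had log2 fold changes of -0.19 ± 0.049 (SE, edgeR adjusted p = 0.0183) and -0.20 ± 0.054 (SE, edgeR adjusted p = 0.0257). The test was no longer passed by Rrm2 without KO 2 (adjusted p 0.0592) by Tyms without WT 2, KO 1 or KO 2 (adjusted p 0.0515 to 0.0731), by Rrm1 without WT 3 or KO 2 (adjusted p 0.0775 to 0.091) and by Tk1 without WT 2, WT 3, KO 1 or KO 2 (adjusted p 0.0726 to 0.105).

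Of the mitotic entry genes 6 of 7 fell, and their sum was 396 ± 8.26 CPM in WT and 319.6 ± 3.36 CPM in KO, the lowest ratio of the 8 roles at 0.808. Cdk1 (ENSMUSG00000019942.13, chr10:69335146-69352938), the kinase that triggers mitosis, had the largest decrease and the smallest adjusted p of the 48. It was at 63.3, 66.3 and 62.5 CPM in the WT samples and 46.2, 41.9 and 46.5 CPM in the KO samples. All KO samples were far below all WT samples, with a log2 fold change of -0.51 ± 0.063 (SE, edgeR adjusted p = 0.000238). Ccnb1, encoding its partner cyclin B1, was at 58.3, 61.4 and 60.2 CPM in the WT samples and 45.9, 48.5 and 45.4 CPM in the KO samples and fell without overlap (-0.36 ± 0.058 SE, edgeR adjusted p = 0.00131). Ccna2, encoding cyclin A2, was at 74.2, 82.6 and 76.9 CPM in the WT samples and 65.7, 68.7 and 63.3 CPM in the KO samples (-0.24 ± 0.061 SE, edgeR adjusted p = 0.0179), also without overlap. Foxm1, the transcription factor of G2/M genes, Plk1 and Aurka, both mitotic kinases, fell too, with log2 fold changes of -0.38 ± 0.080, -0.24 ± 0.071 and -0.27 ± 0.077 (SE). Ccnb2, the second B-type cyclin, had overlapping groups and did not pass (-0.14 ± 0.064 SE, edgeR adjusted p = 0.172). The Ccna2 call was lost without WT 2, WT 3, KO 1 or KO 3 (adjusted p 0.0549 to 0.0637), that of Plk1 without WT 1, WT 3, KO 2 or KO 3 (adjusted p 0.0809 to 0.111) and that of Aurka without WT 1, WT 2, KO 1 or KO 2 (adjusted p 0.0603 to 0.122).

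Among the kinetochore, checkpoint and anaphase genes, 3 of 9 fell. Ube2c, the ubiquitin-conjugating enzyme of the anaphase-promoting complex, was at 55.4, 68.1 and 60.2 CPM in the WT samples and 46.7, 41.3 and 46.4 CPM in the KO samples. Its groups were widely separated (log2 fold change -0.45 ± 0.084 SE, edgeR adjusted p = 0.00353). Bub1, a spindle checkpoint kinase, was at 36.5, 30.5 and 32.6 CPM in the WT samples and 27.1, 26.8 and 23.4 CPM in the KO samples (-0.37 ± 0.090 SE, edgeR adjusted p = 0.0159), the lowest WT value standing above the highest KO value. Birc5, encoding survivin, a subunit of the chromosomal passenger complex, fell with a log2 fold change of -0.31 ± 0.086 (SE, edgeR adjusted p = 0.0291). Bub1b, the checkpoint gene BubR1, was higher in all KO samples but did not pass the test (0.08 ± 0.055 SE, edgeR adjusted p = 0.379), and Aurkb, Cenpa, Cenpe, Cenpf and Cdc20 had negative log2 fold changes that did not pass either. The call for Bub1 was lost without WT 3 or KO 3 (adjusted p 0.0539 to 0.0566) and that for Birc5 without WT 2, WT 3, KO 1 or KO 2 (adjusted p 0.061 to 0.114).

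In the spindle, chromosome structure and cytokinesis group 2 of 7 fell. Tpx2, a spindle assembly factor that activates Aurora A, was at 85.4, 82.3 and 84.6 CPM in the WT samples and 68.3, 68.7 and 63.5 CPM in the KO samples and separated without overlap (log2 fold change -0.33 ± 0.055 SE, edgeR adjusted p = 0.00174). Mki67, the source of the Ki-67 antigen used to stain cycling cells, was at 279, 218 and 243 CPM in the WT samples and 215, 209.6 and 176 CPM in the KO samples. The lowest WT and the highest KO sample were close, and the log2 fold change of -0.30 ± 0.096 (SE, edgeR adjusted p = 0.0464) was only just past the threshold. It was lost without 5 of the 6 libraries in turn, namely WT 1, WT 3, KO 1, KO 2 and KO 3 (adjusted p 0.0587 to 0.142). Top2a, which decatenates sister chromatids, was at 217, 205 and 208 CPM in the WT samples and 199, 194 and 183 CPM in the KO samples, all KO values below all WT values, and did not pass (-0.13 ± 0.050 SE, edgeR adjusted p = 0.109). Kif11, Kif20a, Nusap1 and Prc1 did not pass the test, with log2 fold changes from -0.17 (Prc1) to -0.0137 (Kif11).

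The 2 CDK inhibitors differed from each other. Cdkn1b (ENSMUSG00000003031.14, chr6:134920401-134925513), encoding p27, was at 48.8, 50.1 and 52.7 CPM in the WT samples and 65.3, 62.8 and 61.7 CPM in the KO samples. Every KO sample exceeded every WT sample, a log2 fold change of 0.32 ± 0.058 (SE, edgeR adjusted p = 0.00272), and this call held without each of the 6 libraries in turn. Cdkn1a, encoding p21, was at 332, 379 and 354 CPM in the WT samples and 333, 338 and 333 CPM in the KO samples, with overlapping groups and a log2 fold change of -0.09 ± 0.053 (SE, edgeR adjusted p = 0.294).

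**Figure D3:**
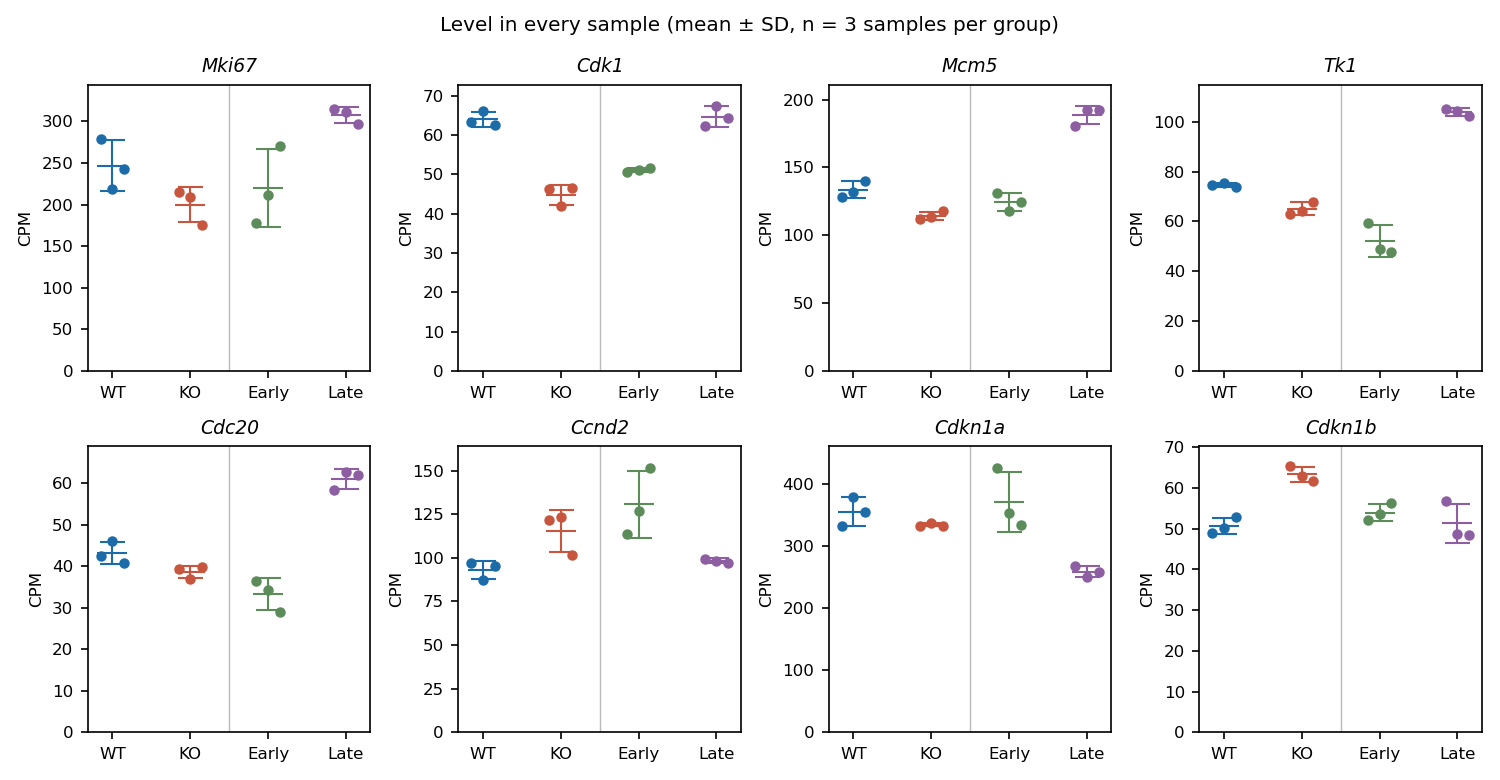
CPM in every sample (points) with mean ± SD (n = 3 samples per group) for 8 genes in WT, KO, Early and Late, each panel with its own y axis from 0. The vertical line separates the 2 count tables, which were scaled separately. Cdk1 and Mcm5 are lower in KO than in WT and higher in Late than in Early, Cdkn1b is separated only in the table of KO and WT, and Early Mki67 spreads from 178 to 271 CPM.

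To ask how the program differs with tumor stage, the Late samples were compared with the Early samples. Most of the 48 genes were higher in Late. Of the 48, 33 rose and 2 fell, the latter being Ccnd2 and Cdkn1a, while 9.18% of all 17630 genes tested were called, 4.31% higher and 4.88% lower. The log2 fold changes ran from -0.52 (Cdkn1a) to 0.998 (Tk1), with a median of 0.43 against 0.0027 for all genes tested, and 43 were positive. Summed over the 48, the level was 4028, 3952 and 4126 CPM in the Early samples and 4983, 5083 and 5086 CPM in the Late samples. The sums did not overlap, and Late stood at 1.25 times Early. None also passed an absolute log2 fold change above 1 with edgeR or DESeq2, although 42 had an unadjusted p under 0.05 with edgeR, as did 24.5% of all genes tested, and Tk1 came close. Of all genes tested, 1.87% passed both limits, 0.601% higher and 1.26% lower.

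Without Early 2, Late 2 or Late 3, the number that rose was 17, 16 and 17. In these runs 3.69%, 3.55% and 3.72% of all genes tested were called in either direction, against 9.18% with all libraries. The number that fell was 1 without Early 2 or Late 1 and 0 without Late 2 or Late 3. In 43 of the 48 genes the Late values lay outside the range of the Early values, 40 of them above it and 3 below it, against 31.2% of all genes tested, 15.6% in each direction.

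Of the 5 G1 cyclins and kinases, 1 fell in Late and none rose. Ccnd2 was at 114, 127 and 152 CPM in the Early samples and 99.6, 98.4 and 97 CPM in the Late samples. The Late samples lay close together and below all Early samples, which spread widely (log2 fold change -0.41 ± 0.10 SE, edgeR adjusted p = 0.0346). Ccnd1 was at 293, 302 and 340.2 CPM in the Early samples and 369.6, 359 and 373 CPM in the Late samples, all Late values above all Early values, and did not pass (0.24 ± 0.075 SE, edgeR adjusted p = 0.0839). Ccnd3 was at 115, 93.6 and 99.2 CPM in the Early samples and 90.6, 89.8 and 86.5 CPM in the Late samples, all Late values below (-0.20 ± 0.087 SE, edgeR adjusted p = 0.184). Neither of the kinases passed the test. Cdk4 overlapped between groups at 174, 149 and 139 CPM in the Early samples and 162, 175 and 177 CPM in the Late samples (0.16 ± 0.092 SE, edgeR adjusted p = 0.338). Cdk6 was at 72.8, 79.7 and 86.3 CPM in the Early samples and 98.5, 93.3 and 98.3 CPM in the Late samples, separated in the higher direction (0.28 ± 0.081 SE, edgeR adjusted p = 0.061). Leaving out 1 library removed the call for Ccnd2 without Early 2, Late 1, Late 2 or Late 3 (adjusted p 0.108 to 0.135) and brought a call for Ccnd1 without Early 3 (adjusted p 0.0121), Cdk4 without Early 1 (adjusted p 0.0373) and Cdk6 without Early 3 (adjusted p 0.018). DESeq2 called Ccnd1 and Cdk6 higher.

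None of the 4 G1/S genes passed the test with edgeR, and 2 of them, Ccne1 and E2f1, had an unadjusted p under 0.05. E2f1 was at 58.5, 47.9 and 45 CPM in the Early samples and 64, 62.6 and 63.3 CPM in the Late samples. All Late values were higher, with a log2 fold change of 0.33 ± 0.10 (SE, edgeR adjusted p = 0.0777), and a call was reached for E2f1 without Early 1 (adjusted p 0.005) and with DESeq2. Ccne1 was at 21.4, 21.4 and 17.6 CPM in the Early samples and 24.9, 24 and 23.5 CPM in the Late samples, also separated in the higher direction (0.26 ± 0.11 SE, edgeR adjusted p = 0.169). Cdk2 and Ccne2 had overlapping groups and log2 fold changes of -0.09 ± 0.077 (SE, edgeR adjusted p = 0.539) and 0.08 ± 0.19 (SE, edgeR adjusted p = 0.842), while Pmel, whose exons overlap those of Cdk2, had one of -0.69 ± 0.16 (SE, edgeR adjusted p = 0.0267, lost without Early 2 or Late 2 at 0.0902 and 0.051).

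Replication genes rose together, 9 of 10 passing the test and Cdc6 being the exception, and their sum was 1082 ± 19.8 CPM in Early and 1477 ± 41.1 CPM in Late. Mcm5 (ENSMUSG00000005410.6, chr8:75109569-75128439) was at 131, 118 and 124 CPM in the Early samples and 181, 192 and 192 CPM in the Late samples. The lowest Late value was far above the highest Early value, a log2 fold change of 0.60 ± 0.072 (SE, edgeR adjusted p = 0.000911). Mcm7, another helicase subunit, was at 81.6, 82 and 80.7 CPM in the Early samples and 115, 129 and 126 CPM in the Late samples (0.60 ± 0.072 SE, edgeR adjusted p = 0.000974), and Mcm2 at 112, 114 and 108 CPM in the Early samples and 154, 163 and 167 CPM in the Late samples (0.53 ± 0.069 SE, edgeR adjusted p = 0.00133). Both were separated without overlap, and so were Mcm3, Mcm4 and Mcm6, whose log2 fold changes were 0.49 ± 0.067, 0.42 ± 0.070 and 0.46 ± 0.070 (SE), so that in this comparison all 6 helicase subunits rose. Cdt1, the licensing factor, had the largest log2 fold change of the group, 0.64 ± 0.097 (SE, edgeR adjusted p = 0.00341). Pcna changed least among those called, at 327, 302 and 290.4 CPM in the Early samples and 360.3, 373 and 369 CPM in the Late samples (0.26 ± 0.070 SE, edgeR adjusted p = 0.0453). Its call was lost without Early 2, Early 3, Late 1, Late 2 or Late 3 (adjusted p 0.056 to 0.195), that of Cdc45 without Early 2, Late 1, Late 2 or Late 3 (adjusted p 0.0525 to 0.101) and that of Mcm4 without Late 2 (adjusted p 0.0519). Mcm7 shares 557 exon bases with other genes, among them Cops6 and Ap4m1 on the opposite strand, and the most counted of them held up to 109.6% of its counts.

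The 4 genes of deoxynucleotide synthesis all rose, their sum being 275 ± 8.62 CPM in Early and 394 ± 14.9 CPM in Late. Tk1 (ENSMUSG00000025574.13, chr11:117815526-117826092), which salvages thymidine, had the largest fold change of the 48. It was at 59.5, 49 and 47.6 CPM in the Early samples and 105, 104 and 102 CPM in the Late samples. The Late samples lay close together and far above the Early samples, with a log2 fold change of 1.00 ± 0.094 (SE, edgeR adjusted p = 0.000229). Rrm1 was at 115, 119 and 141 CPM in the Early samples and 156, 171 and 175 CPM in the Late samples (0.42 ± 0.091 SE, edgeR adjusted p = 0.0204) and Rrm2 at 77.9, 72.9 and 71.6 CPM in the Early samples and 85.9, 94.3 and 95 CPM in the Late samples (0.31 ± 0.076 SE, edgeR adjusted p = 0.0341). Both separated without overlap. Tyms had a log2 fold change of 0.38 ± 0.089 (SE, edgeR adjusted p = 0.027). With 1 library left out, the test was failed by Rrm1 without Early 2, Late 2 or Late 3 (adjusted p 0.0988 to 0.109) Rrm2 without Early 2, Late 1, Late 2 or Late 3 (adjusted p 0.0561 to 0.163) and Tyms without the same 4 libraries in turn (adjusted p 0.0661 to 0.131).

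All 7 mitotic entry genes rose, their sum being 336 ± 6.22 CPM in Early and 473 ± 11.6 CPM in Late. Ccnb2 was at 46, 45 and 44.6 CPM in the Early samples and 69.1, 69 and 69.2 CPM in the Late samples. Both groups were narrow and far apart (log2 fold change 0.61 ± 0.070 SE, edgeR adjusted p = 0.000663). Foxm1 was at 40.2, 41.9 and 37 CPM in the Early samples and 63.3, 62.8 and 60.9 CPM in the Late samples (0.65 ± 0.079 SE, edgeR adjusted p = 0.000974), without overlap. Cdk1, which changed most in KO, changed least of the 7 here, at 50.5, 51.1 and 51.7 CPM in the Early samples and 62.4, 67.5 and 64.3 CPM in the Late samples (0.34 ± 0.072 SE, edgeR adjusted p = 0.0182). Ccnb1 was at 46.8, 52.6 and 52.7 CPM in the Early samples and 66.1, 67.2 and 69 CPM in the Late samples (0.41 ± 0.078 SE, edgeR adjusted p = 0.0104) and Ccna2 at 68.3, 76.4 and 89.2 CPM in the Early samples and 99.9, 112 and 109 CPM in the Late samples (0.46 ± 0.10 SE, edgeR adjusted p = 0.0232), where the Early samples of Ccna2 spread more than the Late ones. No group overlapped in any of the 7. The calls that depended on 1 library were those of Cdk1 without Early 2, Late 2 or Late 3 (adjusted p 0.0858 to 0.114), Ccnb1 without Early 2, Late 2 or Late 3 (adjusted p 0.0503 to 0.0666), Aurka without the same libraries (adjusted p 0.0574 to 0.0744) and Ccna2 without Early 2, Late 1, Late 2 or Late 3 (adjusted p 0.0517 to 0.113).

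Of the kinetochore, checkpoint and anaphase genes 6 of 9 rose. Cdc20 (ENSMUSG00000006398.15, chr4:118432901-118437352), the activator of the anaphase-promoting complex, was at 36.6, 34.4 and 29 CPM in the Early samples and 58.3, 62.7 and 62 CPM in the Late samples. Every Late sample was far above every Early sample (log2 fold change 0.87 ± 0.099 SE, edgeR adjusted p = 0.000639). Its exons share 53 bases with Elovl1 on the opposite strand, which held up to 229% of its counts. Bub1b was at 49.9, 53 and 56 CPM in the Early samples and 83.7, 85.4 and 86.4 CPM in the Late samples, again without overlap (0.68 ± 0.075 SE, edgeR adjusted p = 0.000533). Aurkb, Birc5, Cenpa and Ube2c rose, with log2 fold changes of 0.68 ± 0.086, 0.55 ± 0.099, 0.48 ± 0.12 and 0.32 ± 0.081 (SE). Bub1, Cenpe and Cenpf did not pass the test, and in each of them 1 Early sample, Early 3, stood above the others. Without Early 3 all of them were called higher (adjusted p 0.00256 to 0.021). The calls were lost for Birc5 without Early 2, Late 2 or Late 3 (adjusted p 0.0556 to 0.0612), for Cenpa without Early 2, Late 1, Late 2 or Late 3 (adjusted p 0.0973 to 0.161) and for Ube2c without Early 2, Early 3, Late 1, Late 2 or Late 3 (adjusted p 0.0589 to 0.199).

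The 7 spindle, chromosome structure and cytokinesis genes all rose, with a sum of 633 ± 81.7 CPM in Early and 897 ± 2.83 CPM in Late. Kif20a, a cytokinesis kinesin, was at 42.2, 38.5 and 41.3 CPM in the Early samples and 70.1, 65 and 72.3 CPM in the Late samples (0.77 ± 0.080 SE, edgeR adjusted p = 0.000439), and Tpx2 at 70.9, 69.4 and 71 CPM in the Early samples and 100.2, 96.8 and 99.4 CPM in the Late samples (0.49 ± 0.067 SE, edgeR adjusted p = 0.00186). Both were separated by wide gaps. Top2a was at 160.2, 185 and 209 CPM in the Early samples and 255, 261 and 264 CPM in the Late samples (0.49 ± 0.095 SE, edgeR adjusted p = 0.011), and Mki67 at 178, 212 and 271 CPM in the Early samples and 315, 312 and 297 CPM in the Late samples (0.49 ± 0.13 SE, edgeR adjusted p = 0.0476). In both of these long transcripts Early 1 was the lowest and Early 3 the highest library of its group, while the Late samples were even. Single libraries decided the calls of Top2a without Early 2, Late 2 or Late 3 (adjusted p 0.0602 to 0.0672) and Mki67 without Early 2, Late 1, Late 2 or Late 3 (adjusted p 0.123 to 0.177), and the same 4 libraries also decided those of Kif11 (adjusted p 0.114 to 0.14) and Nusap1 (adjusted p 0.0871 to 0.129). Over all 48 genes, the ratio of Early 3 to Early 1 was larger for longer genes (Spearman rho = 0.559 over the 48 genes, which share both libraries, against 0.205 over 15635 genes), whereas the log2 fold change of Late against Early had a rho of -0.164 with length. Libraries of WT and KO differed by length too. The rho was -0.411 over the 48 genes for WT 2 over WT 1 (-0.314 over 15686 genes). For KO 3 over KO 1 it was -0.256 over the 48 genes (-0.258 over 15863 genes). The log2 fold change of KO against WT had a rho of 0.08 with length over the 48 genes.

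Of the CDK inhibitors, Cdkn1a fell. It was at 426, 353 and 334 CPM in the Early samples and 268, 249.6 and 258 CPM in the Late samples, every Late sample below every Early sample, with a log2 fold change of -0.52 ± 0.094 (SE, edgeR adjusted p = 0.00838), and the call was lost without Late 2 or Late 3 (adjusted p 0.0521 to 0.0602). Cdkn1b, which rose in KO, overlapped between stages at 52, 53.6 and 56.1 CPM in the Early samples and 56.8, 48.7 and 48.4 CPM in the Late samples (-0.07 ± 0.088 SE, edgeR adjusted p = 0.672).

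**Figure D4:**
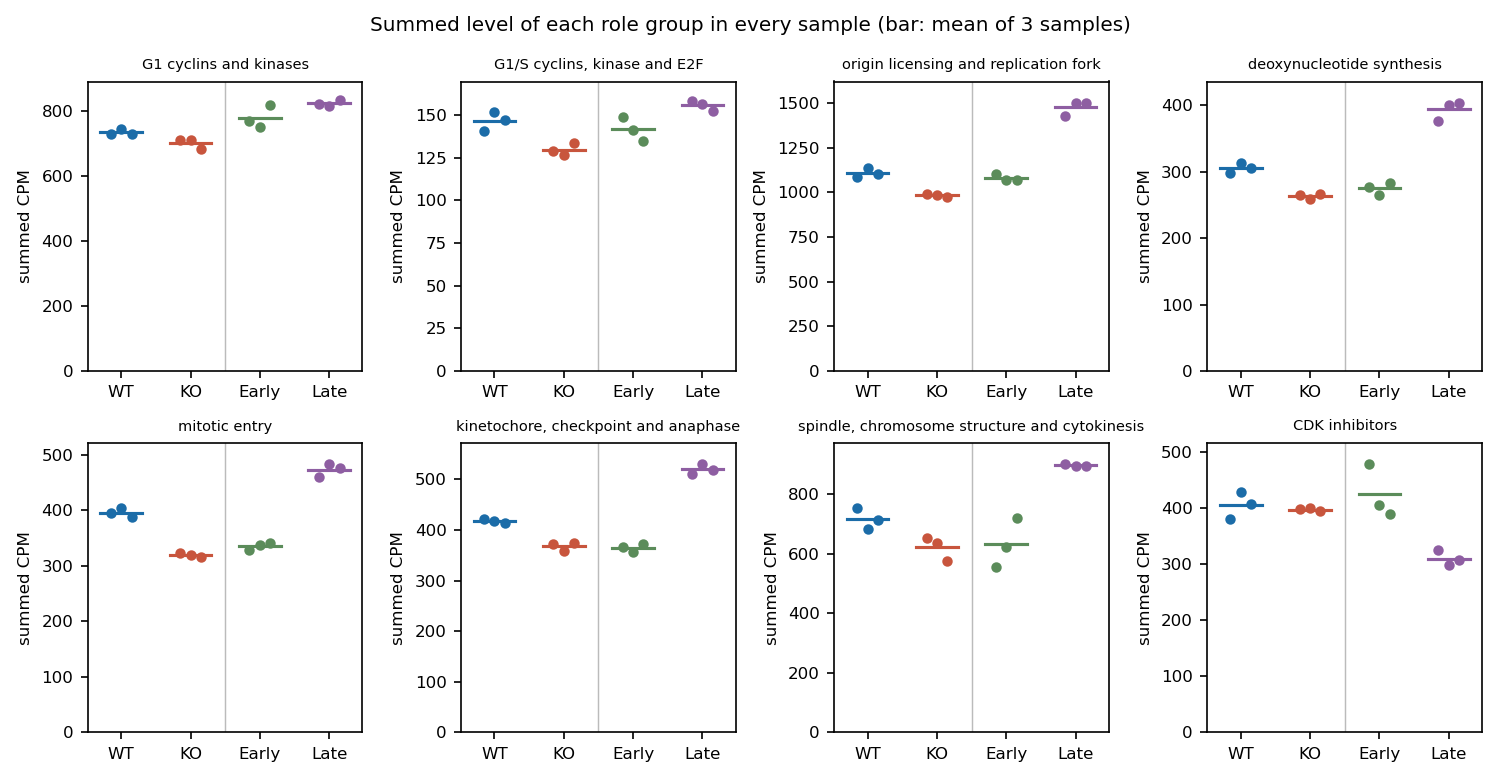
Summed CPM of the genes of each role (y axis from 0, own scale per panel) in every sample of WT, KO, Early and Late, with a bar at the mean of 3 samples and a line between the 2 separately scaled tables. KO lies below WT in each panel except that of the CDK inhibitors, and Late lies above Early in the 6 panels from the G1/S genes to the spindle genes, with Early spindle genes spread from 556 to 719 CPM.

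The 2 comparisons share no samples, so their calls can be set side by side. Of the 48, 18 fell in KO and rose in Late, which is 85.7% of the 21 that fell in KO and 54.5% of the 33 that rose in Late. For all 16812 genes tested in both tables, 120 did so, 7.04% of those lower in KO and 16% of those higher in Late. Because 33 of the 48 rose in Late and 21 fell in KO, many shared genes follow from these 2 counts alone. Whether single genes were opposed beyond that was not tested. The 18 are Mcm2, Mcm5, Mcm6, Pcna, Rrm1, Rrm2, Tyms, Tk1, Cdk1, Ccna2, Ccnb1, Foxm1, Plk1, Aurka, Birc5, Ube2c, Tpx2 and Mki67, and they cover replication, nucleotide supply and mitosis. Ccnd2 did the reverse, higher in KO and lower in Late. Bub1, Cdk2 and Cdk4 fell in KO and were not called in Late, Cdkn1b rose in KO and was not called in Late, and Cdkn1a fell in Late and was not called in KO. The 15 genes that rose in Late and were not called in KO include Cdc20, Bub1b, Mcm7 and Kif20a. The 9 called in neither are Ccnd1, Ccnd3, Cdk6, Ccne1, Ccne2, E2f1, Cdc6, Cenpe and Cenpf, mostly genes of G1 and G1/S. The difference between the 2 comparisons was not tested, because the tables were scaled and fitted separately.

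By promoter, of the 15 genes with both CHR and CCAAT matches, Cdk1, Cdc20 and Ube2c among them, 6 fell in KO and 14 rose in Late. Of the 12 with an E2F core, which include Mcm5, Mcm6 and Cdk1, 8 fell in KO and 10 rose in Late. Of the 9 with none of the 3 motifs, 4 fell in KO, and 4 rose and 1 fell in Late. Among all 48, 21 fell in KO and 33 rose in Late. By comparison, 9.78% of all genes tested were called lower in KO and 4.31% higher in Late. The sets overlap, and the differences between them were not tested.

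Per kilobase of exon in the GENCODE M21 annotation, the most abundant of the 48 was Pcna in WT, Early and Late, at mean levels of 117, 128 and 153 CPM per kb, and the next in WT was Cdkn1a at 99.96 CPM per kb. In KO they stood close, at 97.3 and 94.1 CPM per kb. Ccnd1 stood at 63.6 CPM per kb in WT against 9.89 for Ccnd2 and 11.3 for Ccnd3. Cenpf was the lowest, at 1.94 CPM per kb in WT, and Mki67 stood at 24.5. Exons of 20 of the 48 genes overlap those of another gene, mostly on the opposite strand. How the counting used strand is not given in the sources used here, so the values of these 20 are less certain. Among them, Kif20a shares 1271 bases with Cdc23, Cdk4 641 with Tspan31 and Ccna2 510 with Exosc9. These neighbours held up to 77.2%, 58.7% and 39.5% of the counts of the 3 genes, and their part in the results was not tested.

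Other cell cycle genes were counted in the same way. Of 40 further S phase genes, 8 fell and 0 rose in KO, and 20 rose and 0 fell in Late. The 8 are 20% of that list, next to 21.1% of all genes called in either direction and 9.78% called lower, and 32 of the 40 had negative log2 fold changes. Among those that fell in KO was Gmnn, geminin, an inhibitor of licensing (-0.40 ± 0.089 SE, edgeR adjusted p = 0.0101), whose call was lost without KO 2 (adjusted p 0.0587). In Late they were led by E2f2 at 22.7, 19 and 21.4 CPM in the Early samples and 46.5, 39.4 and 40.1 CPM in the Late samples (1.00 ± 0.11 SE, edgeR adjusted p = 0.0005) and by Lig1, the ligase of the replication fork (0.68 ± 0.075 SE, edgeR adjusted p = 0.00056). Of 54 further G2 and M phase genes, 22 fell and 0 rose in KO, and 29 rose and 0 fell in Late. These are 40.7% and 53.7% of that list, next to 21.1% and 9.18% of all genes called in either direction. The 20 S phase genes that rose in Late are 50% of their list. Cdca3, a mitotic entry factor, was at 49.3, 54.9 and 49.5 CPM in the WT samples and 32.2, 36.2 and 34.8 CPM in the KO samples (-0.57 ± 0.071 SE, edgeR adjusted p = 0.000261), the second G2/M gene in KO being Pbk, a mitotic kinase (-0.56 ± 0.080 SE, edgeR adjusted p = 0.000651). Ncapd2, a condensin subunit, and Nek2, a centrosome kinase, had the smallest adjusted p in Late (0.59 ± 0.067 SE, edgeR adjusted p = 0.000692, and 0.78 ± 0.099 SE, edgeR adjusted p = 0.00117). The median log2 fold changes of these lists were -0.152 and -0.227 in KO and 0.377 and 0.446 in Late.

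Regulators were mixed. Of 15 further CDK inhibitors, pocket proteins and DREAM subunits, 2 rose and 4 fell in KO, and 2 rose and 0 fell in Late. The shares called in KO and in Late were 40% and 13.3% of this list. They were 33.3% and 12.5% for the p53 targets and 50% and 42.9% for the macrophage proliferation genes below. Of all genes tested, 21.1% and 9.18% were called. Rbl2, encoding the pocket protein p130 of the DREAM complex, rose in KO (0.31 ± 0.066 SE, edgeR adjusted p = 0.00696). Cdkn2c, encoding p18, fell in KO (-0.36 ± 0.080 SE, edgeR adjusted p = 0.00983, but 0.0527 without WT 3) and rose in Late (0.54 ± 0.082 SE, edgeR adjusted p = 0.00334). Cdkn2a was at 1.03, 0.724 and 0.58 CPM in Early and at 2.74, 3.06 and 2.94 CPM in Late (1.90 ± 0.28 SE, edgeR adjusted p = 0.00254). Of 15 p53 targets tested, 2 rose and 3 fell in KO, led by Plk2 (-0.90 ± 0.053 SE, edgeR adjusted p = 1.55e-06) and the antiproliferative gene Btg2 (0.74 ± 0.049 SE, edgeR adjusted p = 3.31e-06), and of 16 in Late 0 rose and 2 fell, namely Pmaip1 and Plk2 (-0.44 ± 0.094 SE, edgeR adjusted p = 0.0194, and -0.32 ± 0.070 SE, edgeR adjusted p = 0.0204). Both of these Late calls were lost without Early 2, Late 2 or Late 3, and that of Plk2 also without Late 1 (adjusted p 0.0607 to 0.123). Of 14 receptors, ligands and effectors of macrophage proliferation, 5 rose and 2 fell in KO, and 1 rose and 5 fell in Late. Myc, a transcription factor that promotes growth and division, was at 57.5, 58.6 and 59.4 CPM in the WT samples and 37.3, 37.2 and 35.8 CPM in the KO samples. It fell without overlap (-0.67 ± 0.056 SE, edgeR adjusted p = 1.92e-05) and rose in Late (0.70 ± 0.11 SE, edgeR adjusted p = 0.00338). Csf2rb, the shared chain of the GM-CSF receptor, rose in KO (0.64 ± 0.056 SE, edgeR adjusted p = 2.42e-05), while Csf2rb2 and Il4ra, the IL-4 receptor chain, had the smallest adjusted p among those that fell in Late (-0.71 ± 0.077 SE, edgeR adjusted p = 0.000525, and -0.46 ± 0.065 SE, edgeR adjusted p = 0.0022). Csf1r, the CSF1 receptor, was at 1209.6, 1215 and 1208 CPM in the WT samples and 1344, 1337 and 1319.7 CPM in the KO samples, and at 945, 921 and 958 CPM in the Early samples and 1011, 980.4 and 995 CPM in the Late samples, with log2 fold changes of 0.14 ± 0.035 (SE, edgeR adjusted p = 0.0177) and 0.08 ± 0.061 (SE, edgeR adjusted p = 0.462). Its call in KO was lost without WT 3, KO 1 or KO 2 (adjusted p 0.0669 to 0.0896).

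RNA of other cell types differed along with these genes. For the counts below, 21.1% of all genes tested were called in KO and 9.18% in Late, in either direction. Of 10 markers of B16 melanoma cells 8 fell and 0 rose in KO, with sums of 1071 to 1075 CPM in WT and 729 to 766 CPM in KO, in the direction of the cell cycle genes. In Late 7 fell and 0 rose, with 1775 to 1937 CPM in Early and 817 to 1288 CPM in Late, against the direction of the cell cycle genes. Of 9 T cell markers 8 rose and 0 fell in KO (116 to 130 CPM in WT, 212 to 215 CPM in KO) and 3 rose in Late (189 to 198 and 233 to 272 CPM). NK cell markers rose in KO, all 7 of them (33.2 to 37.2 and 81.7 to 84.9 CPM), and 5 fell in Late (89.1 to 103 and 39.7 to 54.2 CPM). Monocyte markers rose for 3 and fell for 1 of 7 in KO (1429 to 1469 and 1493 to 1552 CPM), and fell for 6 of 7 in Late (1085 to 1381 and 399 to 460.2 CPM). Fibroblast markers rose for all 6 in KO (569.8 to 616 and 741 to 821 CPM) and fell for 3 in Late (801 to 878 and 393 to 555 CPM). Macrophage markers rose for 2 and fell for 3 of 12 in KO, and their sum was lower there without overlap, at 18077 to 20183 CPM in WT and 16634 to 17277 CPM in KO, a ratio of 0.885 next to 0.895 for the 48 genes. The median log2 fold change of these 12 markers was -0.051, with 5 positive and 7 negative, next to -0.17 for the 48 genes. In Late 1 rose and 2 fell, and the sums overlapped (14702 to 19040.4 CPM in Early, 16582 to 16636 CPM in Late). Counted as higher and lower, markers of B cells were 1 and 4 of 7 in KO and 3 and 0 in Late, and those of neutrophils 4 and 0 of 8 and 0 and 2. Those of dendritic cells were 6 and 0 of 7 and 1 and 1, and of endothelial cells 2 and 1 of 5 and 0 and 1. Erythroid markers were 0 and 3 of 6 and 0 and 1. Only 6 neutrophil markers were tested in KO and 5 in Late, and only 4 and 5 erythroid markers. In KO the sums were lower for B cells (63.5 to 68.9 CPM in WT, 54.1 to 56 CPM in KO) and erythroid cells (18.5 to 20.1 and 5.96 to 7.04 CPM). Single B cell markers changed more than their sum, with log2 fold changes from -6.47 to 0.39 and a median of -3.10. Of these 7, 4 were called with an absolute log2 fold change above 1. The sums were higher in KO for neutrophils (111 to 119 and 183 to 185 CPM), dendritic cells (80.7 to 91.1 and 125 to 132 CPM) and endothelial cells (50.3 to 58.1 and 116 to 119.9 CPM). In Late the B cell sum was higher (79.8 to 93.8 CPM in Early, 102 to 133 CPM in Late), those of neutrophils (121 to 128 and 104 to 109 CPM), endothelial cells (85 to 88.7 and 76.5 to 81.2 CPM) and erythroid cells (11.6 to 14.9 and 9.16 to 10.5 CPM) were lower, and that of dendritic cells overlapped (89.6 to 98 and 93.5 to 100.4 CPM). The part of these cells in the cell cycle results was not tested.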

How the data were processed

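RNA-seq of 12 sorted TAM samples was analysed as 2 count tables of 6 samples each. Per the methods and labels, the authors mapped reads with HISAT2 and assigned them to genes with featureCounts, the tables being deposited as raw counts. Versions and strand settings are not given in the sources used here, and the study names the mouse genome GRCh38, whereas the identifiers and versions of all 48 genes match GENCODE M21 on GRCm38. No per-sample column was left unused (0). Depth per library is given above, and the least counted gene had 623 counts.

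Each table was fitted alone with edgeR 4.0.16 in R 4.3.3 (filterByExpr, TMM, glmQLFit and glmQLFTest without covariates), with Benjamini-Hochberg adjustment over all genes tested and calls at an adjusted p under 0.05. CPM are TMM-scaled, SE are of the log2 fold change, and the script was tested on simulated data. Alternatives were RLE and upper-quartile scaling, DESeq2 1.42.0, 2 other filters, a replicate block, and leaving out 1 library at a time. An exact permutation test of 3 against 3 samples cannot go below p = 0.1, so none was used. Exon overlaps and lengths come from GENCODE M21, whose transcripts were also searched for matches with blast 2.17.0. Promoter windows come from RefSeq on GRCm38.p6, and plots from matplotlib 3.10.9.

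The 48 genes, their roles, the other lists and the markers were chosen with earlier results of these data known. Genes were named by a rule: Mki67, Top2a, Cdk1, Ccna2, Ccnb1, Mcm2, Mcm5, Pcna, Rrm2, Ccnd1, Ccnd2, Ccnd3, Ccne1, E2f1, Cdk4, Cdk6, Cdkn1a and Cdkn1b with their values in every sample, the 2 genes of smallest adjusted p in each role, and the 2 of smallest adjusted p in each other list. Where another gene is given with values, its values had been seen. Replicate pairs of a group differed by more than sampling noise, so all were counted. The chi-square per gene between the counts of a pair was 121 for Early 1 against Early 3 and 9.33 to 55.5 for the other pairs. It does not show whether samples came from separate animals. Some single genes of the wider lists, counted within them, are not reported here.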

Additional observations from a re-analysis of the deposited data

How the results depend on the processing

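No median over the 48 genes and no called gene reversed its direction under any alternative run. For KO against WT, RLE and upper-quartile scaling, DESeq2, at least 10 counts in every library and the replicate block each gave 2 genes higher and 21 lower, and no filter beyond 1 count gave 1 and 18. Leaving out 1 library gave 1 to 2 higher, 9 to 18 lower and a median log2 fold change of -0.20 to -0.17. The share of all genes called in these runs was 13.3% to 22.1%. For Late against Early, these settings gave 29 to 36 genes higher and 2 lower, and no filter beyond 1 count gave 24 and 1, while more genes entered the adjustment (27856 against 17630). DESeq2 called 36 higher, when it called 2650 of the 17630 genes tested, 16.6% of those to which it gave an adjusted p. Leaving out 1 library gave 16 to 36 higher, 0 to 2 lower and a median of 0.38 to 0.47. The share of all genes called in these runs was 3.55% to 15.4%. In Late, upper-quartile scaling lost the calls of Mki67, Pcna and Ube2c (edgeR adjusted p = 0.0524, 0.0591 and 0.0503).

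The replicate block left 2 and 21 calls in KO and 29 and 2 in Late, with medians of -0.17 and 0.43, and it lost Pcna, Rrm2, Tyms and Ube2c in Late (adjusted p = 0.0835, 0.0694, 0.055 and 0.0654). Same-numbered samples did not deviate together (correlations from -0.0159 to 0.0741) and not every sample correlated best with its own number, so the numbers are not taken as pairs and this is not read as a weaker effect. Tk1 passed a log2 fold change of 1 under the block (1.00), with at least 10 counts in every library (1.00), and without Early 1 (1.11) or Late 3 (1.01). Counted over every alternative for the genes named by the rule from the 48, 518 kept their side of the threshold, 74 were lost and 8 were gained. The rest of the 48 and the genes given from other lists were run under the same alternatives, a step added after seeing the data, and 763 kept their side, 76 were lost, 3 were gained and 10 reversed. All 10 were of genes that did not pass the test. With 1 library left out, the log2 fold change in KO ran from -0.042 to 0.019 for Mcm4 (positive without WT 1, WT 3 or KO 2), -0.064 to 0.0039 for Mcm7 (positive without KO 1), -0.22 to 0.0014 for Cdc6 (without WT 2), -0.093 to 0.039 for Cdc45 (without WT 2 or KO 1) and -0.028 to 0.0010 for Kif11 (without KO 3), and in Late from -0.073 to 0.34 for Ccne2 (negative without Early 1 or Early 2). Over all genes tested, neither scaling moved the median by 0.1 (log2). Each of the 48 genes had at least 623 counts in each library.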
